A study of Mus musculus with 2 samples.

Results

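The neurofilament genes Nefl, Nefm and Nefh, the related intermediate filament genes Prph and Ina, the beta-tubulin gene Tubb3 and the synuclein gene Sncg were followed through single-nucleus RNA counts of injured mouse spinal cord. The 7 genes were picked by symbol from the 32285 genes of the count matrices, all 7 were present in both, and they were chosen with their values in these libraries known, so their levels are a description. C57BL/6 mice of 6 to 8 weeks, with no engineered allele named in the labels, received a T10 contusion of the thoracic cord in which a 5 g rod, 1 mm wide, fell 6 cm. From then, tail-vein injections on 5 days delivered 100 µg of protein of athlete-derived extracellular vesicles (AEVs) in 100 µL, or 100 µL of phosphate-buffered saline (PBS), and both groups were given antibiotics and bladder care. On day 7 each group gave 1 library, made from the cords of 3 mice together, so no difference below has a replicate check and no test across samples was possible. Levels are unique molecular identifiers (UMIs) per 1000000 UMIs of the class of nuclei (CPM), pairs of values give PBS first, ratios are AEVs over PBS, and brackets hold exact 95% intervals for counting error only.

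Neurofilaments are the intermediate filaments of axons and set the calibre of large myelinated ones. The light, medium and heavy subunits, encoded by Nefl, Nefm and Nefh, assemble together with alpha-internexin (Ina) in central axons and with peripherin (Prph) in peripheral axons and in neurons that send axons out of the cord. Tubb3 encodes the class III beta-tubulin of neuronal microtubules, and Sncg encodes gamma-synuclein, a small protein abundant in motor and sensory axons.

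On GRCm38 (GENCODE release M21) Nefl (ENSMUSG00000022055) spans chromosome 14, 68083863 to 68089095 on the plus strand, and lies wholly inside the span of Nefm (ENSMUSG00000022054, 68082590 to 68124846, minus strand), with 1108 bases of exon on exon. Whether counting used strand is not given in the sources used here, so reads of this pair cannot be fully told apart, and the sum of Nefl, Nefm and Nefh, called the triplet below, is given beside the single genes. Nefh (ENSMUSG00000020396) lies on chromosome 11, 4938754 to 4948064, and Sncg (ENSMUSG00000023064) on chromosome 14, 34370274 to 34374789, both on the minus strand. Prph (ENSMUSG00000023484) spans chromosome 15, 99055174 to 99058978, Ina (ENSMUSG00000034336) chromosome 19, 47014698 to 47025327, and Tubb3 (ENSMUSG00000062380) chromosome 8, 123411424 to 123422015, all on the plus strand. Ina shares 456 bases with Nt5c2 on the other strand. Tubb3 lies wholly inside the span of Gm20388 (119910841 to 124345722) on the same strand, with 0 bases of exon on exon. Gm20388 is not among the genes of the count matrices, so it has no counts of its own here.

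Of the 7 genes 4 matched the RefSeq promoter table (GRCm38.p6), and Nefl, Nefm and Nefh did not. The stretches upstream of the start sites of these 4 are shown because they matched, with no rule on their levels. They run 5′ to 3′ on the gene's strand and stop before the first annotated exon. Capitals mark matches on either strand to TATAAA or GGGCGG, the letters of a TATA box and of a GC box, which do not overlap each other in these windows.

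Prph, chr15:99054924-99055173: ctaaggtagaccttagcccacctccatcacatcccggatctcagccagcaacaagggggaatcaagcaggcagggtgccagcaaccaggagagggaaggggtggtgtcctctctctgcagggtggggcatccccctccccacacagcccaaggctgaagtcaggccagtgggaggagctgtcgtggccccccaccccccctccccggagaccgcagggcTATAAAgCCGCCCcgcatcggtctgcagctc

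Ina, chr19:47014431-47014680: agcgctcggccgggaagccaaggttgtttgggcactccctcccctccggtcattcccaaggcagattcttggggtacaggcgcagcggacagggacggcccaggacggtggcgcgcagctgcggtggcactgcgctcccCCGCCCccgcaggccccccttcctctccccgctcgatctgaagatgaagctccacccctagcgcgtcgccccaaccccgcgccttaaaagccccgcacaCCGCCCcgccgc

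Tubb3, chr8:123411303-123411423: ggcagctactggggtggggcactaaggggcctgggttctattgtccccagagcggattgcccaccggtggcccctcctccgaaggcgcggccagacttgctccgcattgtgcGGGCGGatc

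Sncg, chr14:34374790-34374919: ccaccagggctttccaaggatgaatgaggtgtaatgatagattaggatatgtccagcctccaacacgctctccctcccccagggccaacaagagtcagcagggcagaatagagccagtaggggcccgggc

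In these windows TATAAA occurred once, in Prph, at -31 from the RefSeq start site. Counted the same way, GGGCGG occurred in Prph at -24, in Ina at -111 and -12 and in Tubb3 at -138. The RefSeq start sites of Tubb3 and Sncg lie past the end of the printed stretches, which stop at an earlier GENCODE exon. The -138 is therefore not a distance from the GENCODE start of Tubb3 at 123411424. Of 32851 promoter windows of 250 bases, 12.4% held TATAAA and 32.7% held GGGCGG. The Sncg window held neither, nor CCAAT, which 33.8% of windows held. The Sncg window has 130 bases and that of Tubb3 121, fewer than the 250 behind these shares, so the shares are no measure for those windows. The counts read the 3-prime ends of transcripts and measure nothing in these windows, so the matches are a description.

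The PBS library held 15325 barcodes with 82953601 UMIs and the AEVs library 17055 with 81875882, and after filters 13847 and 15602 nuclei remained, with medians of 2591 and 2407.5 UMIs. Both libraries list 177 of the same barcodes. Neuron-like nuclei numbered 3477 and 4743 with medians of 10194 and 7602 UMIs, and oligodendrocyte-like nuclei 4404 and 5411 with medians of 2385 and 2008. The 10 neuron markers summed to 20144 and 21719 CPM in neuron-like and to 484 and 548 CPM in oligodendrocyte-like nuclei. These markers were used to name the class, so their level there is no check of the label.

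The neurofilament triplet was lower in the AEVs library, and Tubb3 lay near equal levels. Over all nuclei the triplet measured 665 CPM in PBS and 321 CPM in AEVs, a ratio of 0.483 (0.475 to 0.491). Nefl, the core subunit, measured 235 and 123 CPM (0.524), and Nefm, the medium subunit, 281 and 135 CPM (0.482). Nefh, the heavy subunit of large axons, measured 150.2 and 63.0 CPM, the lowest ratio of the 7 at 0.420 (0.405 to 0.435). The other 4 genes lay closer to equal levels. Prph measured 14.8 and 11.8 CPM (0.796), Ina 75.7 and 62.0 CPM (0.819), and Sncg 37.3 and 29.8 CPM (0.799). Tubb3 measured 199.8 and 198.7 CPM, a ratio of 0.995 (0.972 to 1.02), which TMM scaling put at 0.930. Of the 7 genes 3 were at least 1.5-fold lower and 0 at least 1.5-fold higher, where 5.95% of all 21024 genes with at least 20 UMIs were that much lower and 12.8% that much higher.

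In neuron-like nuclei the order of the genes was the same at its low end, with Nefh lowest. Nefl measured 186 CPM (182 to 190) in PBS and 114 CPM (111 to 118) in AEVs, a ratio of 0.617 (0.595 to 0.639). Nefm measured 245 CPM (241 to 250) and 149 CPM (146 to 153), a ratio of 0.608 (0.590 to 0.627). Nefh measured 118 CPM (115 to 121) and 58.1 CPM (55.9 to 60.4), a ratio of 0.493 (0.470 to 0.518). For each subunit the intervals of the libraries were apart, and for Nefl and Nefm the ratios overlapped, while that of Nefh lay below both. Here 3 of 7 genes were at least 1.5-fold lower, beside 6.36% of 19402 genes, and 0 were at least 1.5-fold higher, beside 13.1%. With nuclei of each depth bin weighted alike 0 of 7 were lower by that fold, and with sub-clusters weighted alike 2.

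The other 4 genes differed less in neuron-like nuclei. Ina, which co-assembles with the triplet, measured 104 and 88.3 CPM (0.849, 0.813 to 0.886), and Tubb3 measured 190.2 and 179.8 CPM (0.945, 0.916 to 0.975). Sncg measured 24.5 and 21.8 CPM, a ratio of 0.889 (0.814 to 0.971). Prph, at 8.38 and 9.28 CPM, had a ratio of 1.11 (0.958 to 1.28), an interval that includes equal levels. With nuclei of each depth bin weighted alike Tubb3 stood at 1.04, Sncg at 1.13 and Prph at 1.61. The median log2 ratio of the 7 genes was -0.24, beside 0.11 over all genes tested in these nuclei. Summed neuron markers had a ratio of 1.08 in the same nuclei, with 3 of 10 lower in AEVs and none at 0. The 13 mitochondrially encoded genes summed to 2275 and 951 CPM there, all 13 lower in AEVs, and the 10 oligodendrocyte markers to 860 and 539 CPM. Their part in the triplet's difference was not tested.

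Detection of the triplet followed the levels. Neuron-like nuclei with any triplet UMI were 75.4% (73.9 to 76.8) in PBS and 59.5% (58.1 to 60.9) in AEVs. Cut to 1000 UMIs per nucleus, the shares were 27.2% (25.7 to 28.7) of 3402 nuclei and 18.7% (17.6 to 19.9) of 4593, with 75 and 150 shallower nuclei left out. For Tubb3 the cut shares were 14.9% (13.7 to 16.1) and 14.4% (13.4 to 15.5), which overlap. In oligodendrocyte-like nuclei, a class that should lack neurofilament RNA, the cut triplet shares were 12.3% and 5.59%. All 3 subunits were found together in 25.9% of neuron-like nuclei in PBS and 12.4% in AEVs, and in 1.09% and 0.283% after the cut.

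**Figure D1:**
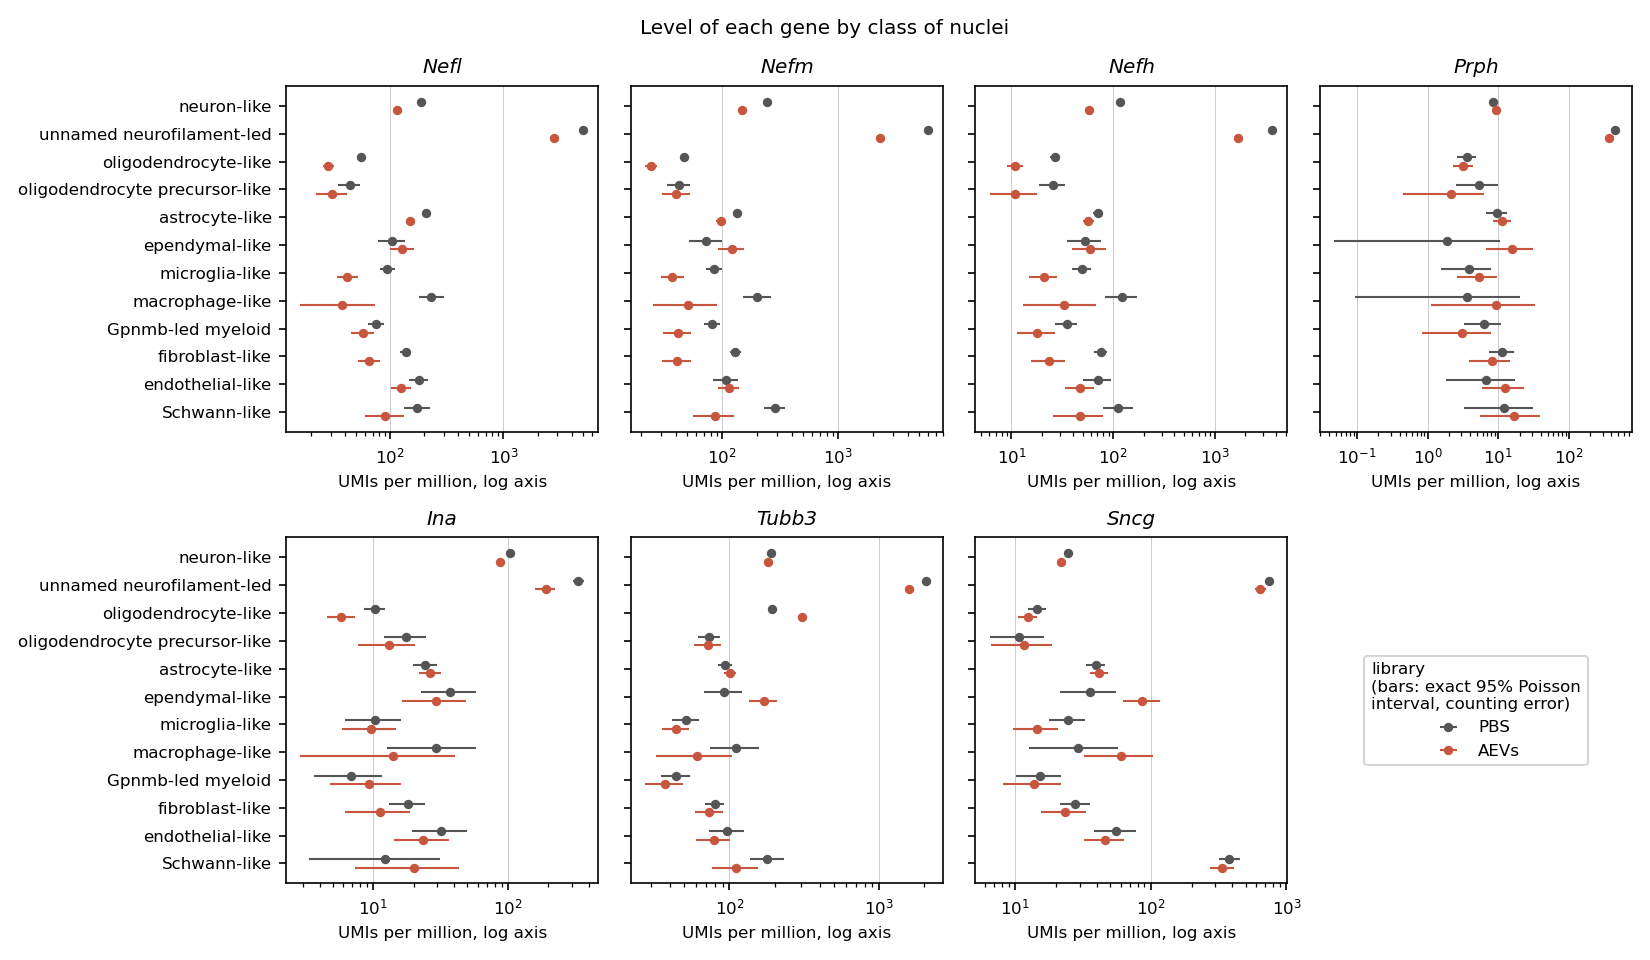
Level of each of the 7 genes (CPM, log axis) in 12 classes of nuclei, PBS in grey and AEVs in red, with bars for exact 95% Poisson intervals. The AEVs point of Nefh lies left of the PBS point in neuron-like nuclei (58.1 against 118 CPM), and the Tubb3 point of oligodendrocyte-like nuclei lies right of it (306 against 191 CPM).

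Neuron subtypes differed widely in triplet level, and nearly all were lower in AEVs. Among 24 neuron sub-clusters with at least 50 nuclei in each library, PBS levels ran from 79.4 CPM in sub-cluster 16, a Slc32a1-high group led by Tyr and Rxfp2, to 1584 CPM in sub-cluster 24, led by Sprr1a and Crh. In AEVs they ran from 56.2 CPM, again in sub-cluster 16, to 742 CPM in sub-cluster 22, whose leading genes include Scn4b, a sodium channel subunit, and Esrrg, a nuclear receptor. The ratio was below 1 in 23 of the 24, with the interval below 1 in 20, and its median was 0.696. Sub-cluster 19, led by Unc5cl and Lmo3, was the exception, at 123.6 and 127.8 CPM (1.03, 0.807 to 1.33), and without the richest nucleus of each library its ratio was 0.945. The ranking of sub-clusters was much the same in both libraries, with a Spearman rho of 0.898 for the triplet across the 24. These points share libraries and depth, so the coefficient is given as a description.

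By subunit, Nefl was below 1 in 23 of 24 sub-clusters (median ratio 0.731), Nefm in 23 of 24 (0.675) and Nefh in 20 of the 21 where it had enough UMIs (0.533). Tubb3 was below 1 in 14 of 24, median 0.994, and Ina in 19 of 24, median 0.842. In sub-cluster 22, the deepest with a median of 21327 UMIs, the triplet measured 934 and 742 CPM (0.794, 0.763 to 0.825), with Nefh at 215 and 153 CPM, while Tubb3 measured 203 and 227 CPM (1.12, 1.03 to 1.20). In sub-cluster 23, a Slc32a1-high group led by Gal and Pdyn, neuropeptide genes, the triplet measured 403 and 96.7 CPM, the lowest ratio at 0.240 (0.196 to 0.292). The high PBS value of sub-cluster 24 rested on 1 nucleus of 137448 UMIs that held 949 of its 1771 triplet UMIs. Without the richest nucleus of each library it measured 838 and 532 CPM, a ratio of 0.635 in place of 0.345.

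**Figure D2:**
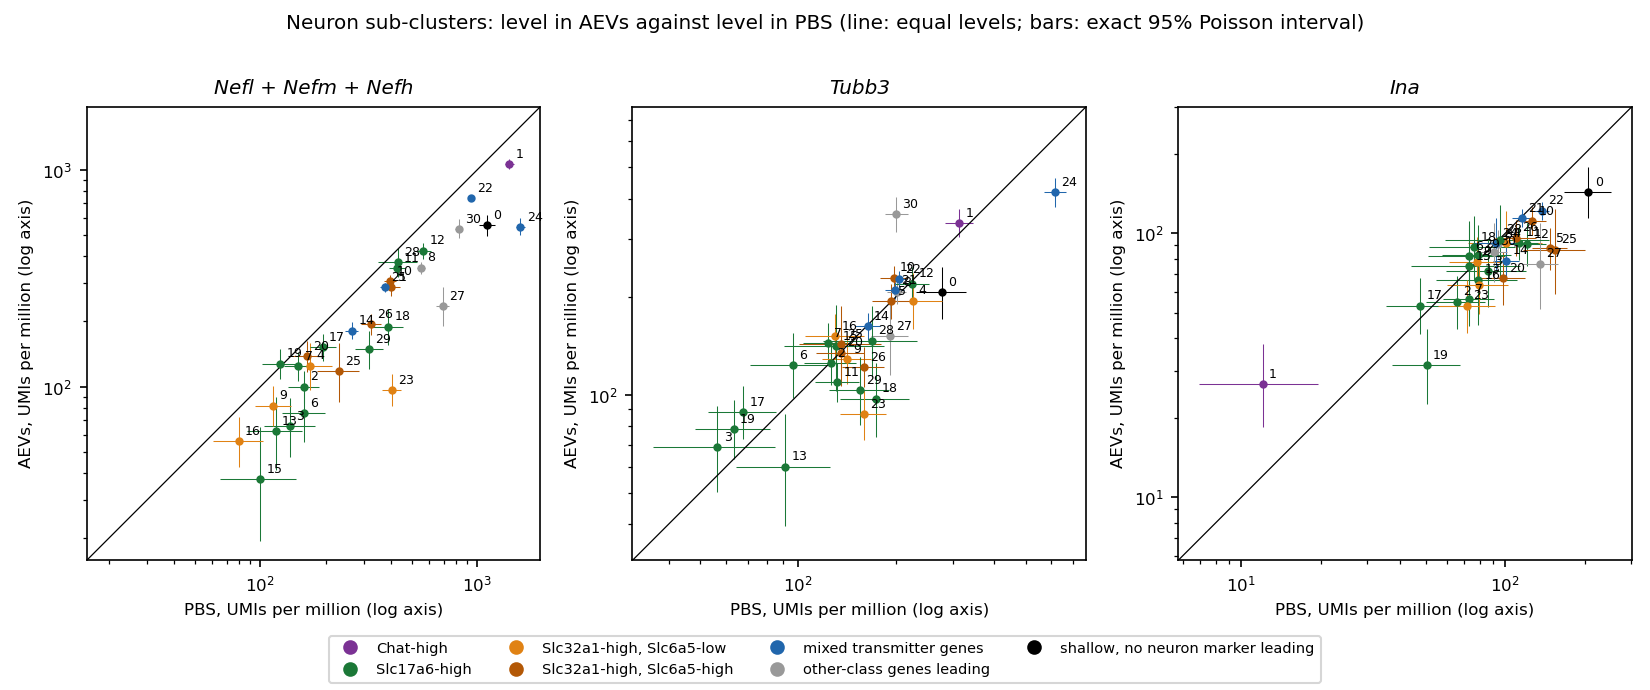
Level in the AEVs library against level in the PBS library (CPM, log axes) for all 31 neuron sub-clusters, numbered and coloured by group, with exact 95% Poisson bars and a line of equal levels. Nearly all triplet points lie under the line, including sub-cluster 22 (934 and 742 CPM), while Tubb3 points lie on both sides of it.

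Grouped by transmitter genes, the triplet was lower in AEVs in each group. Chat-high nuclei, which carry the gene of the enzyme that makes acetylcholine and include the class of motor neurons, numbered 64 and 45, with medians of 3614 and 8235 UMIs, so few nuclei of unequal depth stand behind their values. Their triplet level, 1409 CPM (1346 to 1474) in PBS and 1063 CPM (1006 to 1124) in AEVs, gave a ratio of 0.755 (0.702 to 0.811). Slc17a6-high nuclei, which carry the vesicular glutamate transporter gene of excitatory neurons, measured 267 and 195.5 CPM (0.732, 0.692 to 0.775). Inhibitory nuclei, marked by the vesicular transporter gene Slc32a1, parted by the glycine transporter gene Slc6a5. Those with high Slc6a5 measured 333 and 239 CPM (0.718, 0.672 to 0.767). Those with low Slc6a5 measured 203 and 86.1 CPM (0.425, 0.371 to 0.485), and Nefh there measured 44.9 and 9.54 CPM (0.213, 0.145 to 0.306). Sub-cluster 23 held 376 of the 610 triplet UMIs of these nuclei in PBS and 138 of 352 in AEVs, and 86 of 135 and 17 of 39 Nefh UMIs. Without it, a comparison chosen after seeing the data, the triplet measured 113 and 80.4 CPM (0.713, 0.590 to 0.862) and Nefh 23.6 and 8.27 CPM (0.350, 0.202 to 0.590). Of the 7 genes 5 were at least 1.5-fold lower in the low Slc6a5 nuclei, beside 3.94% of all genes, and 0 higher, beside 14.1%. Without sub-cluster 23 only Nefh, 1 of the 6 with enough UMIs, was lower by that fold, beside 4.32%, and 0 were higher, beside 13.6%. In Slc17a6-high nuclei 0 were lower, beside 3.63%, though 3 were with TMM scaling and 4 with no mitochondrial limit, and in high Slc6a5 nuclei 1 of the 6 with enough UMIs, Nefh, beside 3.45%. Nuclei of the low Slc6a5 kind sorted singly by their transmitter UMIs gave a triplet ratio of 0.631. Nuclei of mixed transmitter genes measured 703 and 449 CPM (0.638, 0.619 to 0.658). There Nefm and Nefh, 2 of 7 genes, were at least 1.5-fold lower, beside 3.62%, and Prph, at 2.04 and 3.94 CPM, was 1 of 7 higher, beside 14.4%, and not with the stricter filter or when nuclei were sorted singly.

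Prph and Sncg were higher in Chat-high nuclei than in the Slc17a6-high and Slc32a1-high groups. Prph measured 123 CPM (105 to 143) in PBS and 184 CPM (161 to 210) in AEVs there, a ratio of 1.498 (1.22 to 1.85), with 29 of 64 and 30 of 45 nuclei holding a UMI. It was at 4.66 and 3.30 CPM in Slc17a6-high and at 1.72 and 1.01 CPM in Slc6a5-high inhibitory nuclei. Only 4 of the 24 sub-clusters had enough Prph UMIs for a ratio. Sub-cluster 15, a Slc17a6-high group of 45 and 67 nuclei led by C1qtnf7 and Bnc2, stood at 46.2 and 56.3 CPM, from 12 and 18 UMIs. Sncg measured 90.5 and 107 CPM in Chat-high nuclei, against 9.32 and 9.33 CPM in Slc17a6-high ones. In Chat-high nuclei, then, the triplet was lower in AEVs, Prph was higher, and the intervals of Sncg (0.912 to 1.53) and Tubb3 (0.936 to 1.24) include equal levels. Ina was lower in this group than in the Slc17a6-high and Slc32a1-high groups, at 12.1 CPM (6.90 to 19.6) and 26.9 CPM (18.4 to 38.0), where all neuron-like nuclei had 104 and 88.3 CPM.

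The triplet level was also higher in deeper nuclei from 4000 UMIs upward. Neuron-like nuclei of 4000 to 8000 UMIs measured 273.5 CPM (259 to 289) in PBS and 156 CPM (149 to 163) in AEVs. Those of 8000 to 16000 UMIs measured 289 and 244 CPM, those of 16000 to 32000 UMIs 639 and 563 CPM, and those above 32000 UMIs 1101 and 778 CPM. In this last bin 949 of the 8990 PBS triplet UMIs came from the 1 nucleus of 137448 UMIs. Nuclei of at least 16000 UMIs had 2.99 times the level of the 4000 bin in PBS and 4.04 times in AEVs. Sub-cluster 22, rich in the triplet, has a median of 21327 UMIs, so depth and subtype cannot be told apart in these bins. Shallow nuclei were high too, at 824 and 472 CPM in the 500 bin. Sub-cluster 0, led by Mbp and Gfap, genes of other classes, made up 93.3% and 87.3% of that bin. Without sub-clusters 0 and 1 the 2000 bin measured 240.4 and 143 CPM, in place of 726 and 244 CPM.

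The ratio of the libraries moved with depth as well. It was 0.569 (0.530 to 0.611) in the 4000 bin, 0.846 (0.813 to 0.881) in the 8000 bin, 0.881 (0.849 to 0.913) in the 16000 bin and 0.707 (0.676 to 0.738) above 32000 UMIs. The last ratio includes the PBS nucleus with 949 triplet UMIs. The AEVs library had 1930 of its 4743 neuron-like nuclei in the 4000 bin, against 779 of 3477 in PBS. When nuclei of each depth bin were weighted alike in both libraries the triplet ratio was 0.766, and with sub-clusters weighted alike 0.643, in place of 0.586. Ina moved less with depth, at 86.3 and 73.8 CPM in the 4000 bin and 119.8 and 110.5 CPM in the 16000 bin. Tubb3 measured 163 and 140.1 CPM in the first of these bins and 188 and 229 CPM in the second, and its ratio went from 0.862 (0.791 to 0.939) to 1.21 (1.14 to 1.29). Prph was at 22.0 and 59.7 CPM above 32000 UMIs and under 7 CPM in the bins from 4000 to 32000. Without sub-clusters 0 and 1, the second of which is the Chat-high group, it was at 8.73 and 19.2 CPM above 32000 UMIs.

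**Figure D3:**
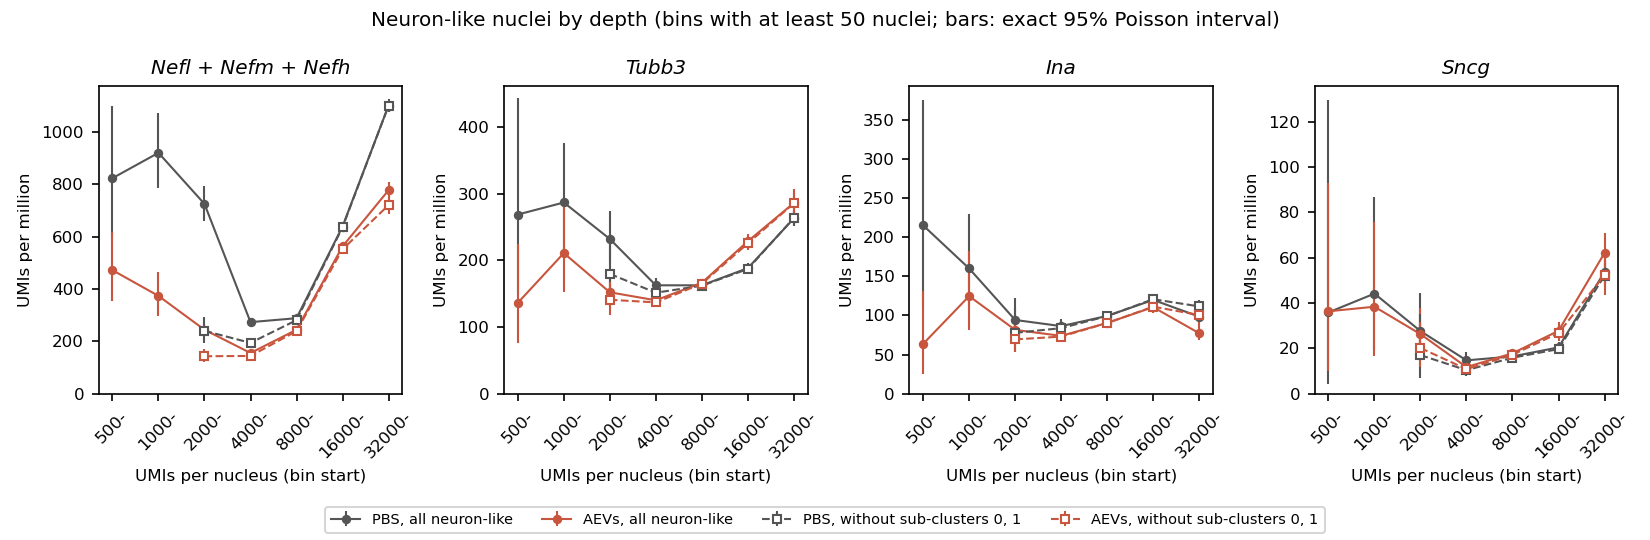
CPM of the triplet, Tubb3, Ina and Sncg in neuron-like nuclei by UMIs per nucleus (bins named by their start, at least 50 nuclei), PBS in grey and AEVs in red, with exact 95% Poisson bars and dashed lines for nuclei without sub-clusters 0 and 1. The triplet climbs from 273.5 and 156 CPM in the 4000 bin to 1101 and 778 CPM above 32000 UMIs, where 1 PBS nucleus holds 949 of 8990 triplet UMIs.

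A cluster of 802 PBS and 457 AEVs nuclei with the triplet genes in the lead was left unnamed, because its leading genes went against the class whose markers were raised in it. Its median depth was 909 and 1056 UMIs. It was singled out because the triplet genes lead it, so their high level there is no finding, although the 7 genes were left out of the clustering. It held 5.79% of PBS and 2.93% of AEVs nuclei. The triplet measured 14599 CPM (1.46% of UMIs) in PBS and 6788 CPM in AEVs, a ratio of 0.465 (0.450 to 0.480). Nefm had the lowest ratio there, 5917 and 2302 CPM (0.389, 0.369 to 0.411), Nefh measured 3645 and 1709 CPM (0.469) and Nefl 5037 and 2777 CPM (0.551). Of the 7 genes 4 were at least 1.5-fold lower, beside 12.7% of all genes in that cluster, and 0 higher, beside 15.9%. Tubb3 measured 2056 and 1569 CPM (0.763), Sncg 749 and 641 CPM (0.856), Prph 453 and 372 CPM (0.821) and Ina 336 and 192 CPM (0.571). Nuclei with more than 5% of their UMIs in the triplet numbered 35 of 802 in PBS and 1 of 457 in AEVs. Those with no triplet UMI made up 13.7% (11.4 to 16.3) and 24.3% (20.4 to 28.5).

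Outside the neuron-like class these genes, Ina least of all, stood nearer to their neuronal level than neuron markers did. Over 10 other classes the median level of Nefl was 64.5% of that in neuron-like nuclei in PBS and 53.4% in AEVs. Nefm, with 39.4% and 31.1%, and Nefh, with 52.3% and 48.1%, were alike. For the 10 neuron markers these medians ran from 2.703% to 12.1% in PBS and from 3.03% to 13.4% in AEVs. These markers were used to name the neuron-like class, so their low level elsewhere is in part set by that choice. Ina, at 17.2% and 15.3%, was the closest of the 7 to the neuron markers, and 85.6% and 89.8% of its UMIs lay in neuron-like nuclei. Of triplet UMIs 51.4% and 63.2% lay there, of Prph UMIs 35.2% and 49.5% and of Sncg UMIs 41.0% and 46.2%, while neuron-like nuclei held 62.3% and 63.1% of all UMIs. Free RNA in droplets, doublets and expression by the other classes cannot be told apart for these counts.

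The triplet was lower in AEVs in most of these classes too. In oligodendrocyte-like nuclei it measured 129 CPM in PBS and 63.7 CPM in AEVs, a ratio of 0.494 (0.452 to 0.538). Astrocyte-like nuclei had 415 and 304 CPM (0.734, 0.681 to 0.790), microglia-like nuclei 229 and 100.1 CPM (0.438) and fibroblast-like nuclei 342 and 129 CPM (0.378). Calls at 1.5-fold were read beside the share of all genes called in the class. Fibroblast-like nuclei had 4 of 7 genes lower, beside 9.77%, and microglia-like nuclei 4 of the 6 with enough UMIs, beside 7.61%. Schwann-like nuclei had 4 of 5 lower, beside 12.8%, but 2 with the stricter filter and 1 with the members among the variable genes of the clustering, where the triplet ratio was 0.691, Nefl 0.927 and Nefm 0.535. Macrophage-like nuclei had 4 of 5 lower, beside 15.8%, and Gpnmb-led myeloid nuclei 2 of 6, beside 9.81%. Oligodendrocyte precursor-like nuclei had 1 of 6 lower, beside 9.78%. Astrocyte-like nuclei had 0 of 7 lower, beside 5.13%, but 5 of 7 with no mitochondrial limit, where the triplet ratio was 0.346, and 2 after the cut to 1000 UMIs. Endothelial-like nuclei had 0 of 6 lower, beside 8.67%. Ependymal-like nuclei had 0 of 6 lower, beside 11.4%, and 3 of 6 higher, beside 16.1%. Macrophage-like nuclei had the lowest ratio, 0.218, from 151 and 26 triplet UMIs. Ependymal-like nuclei went the other way, at 228 and 309 CPM (1.35, 1.06 to 1.73). In this class 7 of the 10 neuron markers were raised as well, and the part of neurons in it was not tested. There 73 of 157 AEVs UMIs came from 1 nucleus, and without the richest nucleus of each library the ratio was 0.856. In Schwann-like nuclei 60 of 188 PBS UMIs came from 1 nucleus, and the ratio of 0.393 became 0.543 without the richest ones. Astrocyte-like nuclei had more Nefl than neuron-like ones, at 207 and 148 CPM against 186 and 114 CPM, and less Ina, at 24.4 and 26.6 CPM against 104 and 88.3 CPM.

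**Figure D4:**
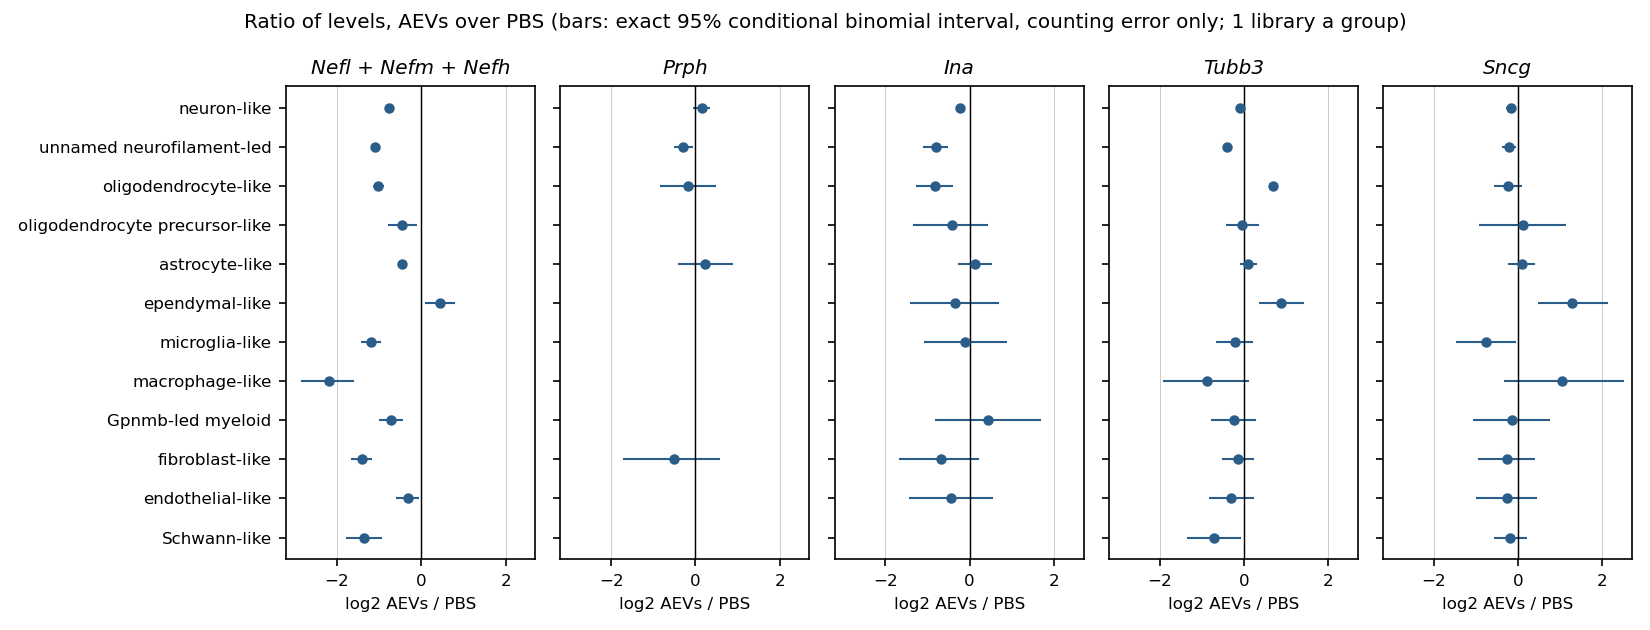
Log2 ratio of AEVs over PBS for the triplet and 4 single genes in 12 classes of nuclei, with exact 95% conditional binomial bars for counting error and a line at equal levels. Points are shown where a gene had at least 20 UMIs, and the Tubb3 point of oligodendrocyte-like nuclei (a ratio of 1.60) stands right of the line while their triplet point (0.494) stands left of it.

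Tubb3 departed from the triplet in oligodendrocyte-like nuclei, where it was higher in the AEVs library. It measured 191 CPM (183 to 199) in PBS and 306 CPM (297 to 316) in AEVs, a ratio of 1.60 (1.52 to 1.69), and was the 1 of 7 genes at least 1.5-fold higher there, beside 17.2% of 14603 genes. With TMM scaling the ratio was 1.46, under that fold. The 4 lower by that fold were the triplet genes and Ina, beside 6.85%. The 4 clusters of the class all had more in AEVs, from 223 and 315 CPM (1.41) in cluster 12 to 189 and 408 CPM (2.16) in cluster 21. Nuclei with a Tubb3 UMI made up 32.6% and 41.4%, and 16.3% (15.2 to 17.5) and 24.6% (23.4 to 25.8) after the cut to 1000 UMIs. That cut share lay above the 14.9% and 14.4% of neuron-like nuclei, in which the gene is known to be expressed. In microglia-like nuclei, with medians of 1642 and 1494 UMIs, 4.79% and 3.58% had a Tubb3 UMI after the cut.

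The ratio of these genes to each other differed between classes. For every 100 triplet UMIs there were 148 Tubb3 UMIs (139 to 158) in oligodendrocyte-like nuclei of PBS and 481 (445 to 520) in AEVs. In astrocyte-like nuclei there were 22.6 and 33.2, and in neuron-like nuclei 34.7 and 55.9. The share of all Tubb3 UMIs that lay in oligodendrocyte-like nuclei was 16.0% in PBS and 27.6% in AEVs, and that of the triplet 3.25% and 3.55%. The level of the 10 oligodendrocyte markers in the class was 22144 and 21641 CPM, and that of the 10 neuron markers 484 and 548 CPM.

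Sncg was set apart in the same way by Schwann-like nuclei, the myelinating glia of peripheral nerve roots. It measured 380 CPM in PBS and 335 CPM in AEVs there, from 125 and 100 UMIs, with a ratio of 0.882 (0.671 to 1.16). That is above its 24.5 and 21.8 CPM in neuron-like and its 39.5 and 41.9 CPM in astrocyte-like nuclei, with intervals that do not overlap. Per 100 triplet UMIs, Schwann-like nuclei had 66.5 and 149 Sncg UMIs, against 11.3 and 19.5 in oligodendrocyte-like nuclei. The 8 PBS and 9 AEVs Schwann-like nuclei richest in Sncg held 55.2% and 55% of its UMIs there. The richest nuclei had 24 and 17 Sncg UMIs, at depths of 12622 and 13530 UMIs. After the cut 23.7% and 19.4% of Schwann-like nuclei had an Sncg UMI, from 114 and 103 nuclei with 50 and 85 left out, and 1.88% and 1.55% of neuron-like nuclei. The class itself held 164 and 188 nuclei with medians of 1565.5 and 1088.5 UMIs, and its 8 Schwann markers summed to 18548 and 16374 CPM. Oligodendrocyte markers stood at 7824 and 8837 CPM in it and neuron markers at 1000.03 and 1343 CPM, and their part was not tested.

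**Figure D5:**
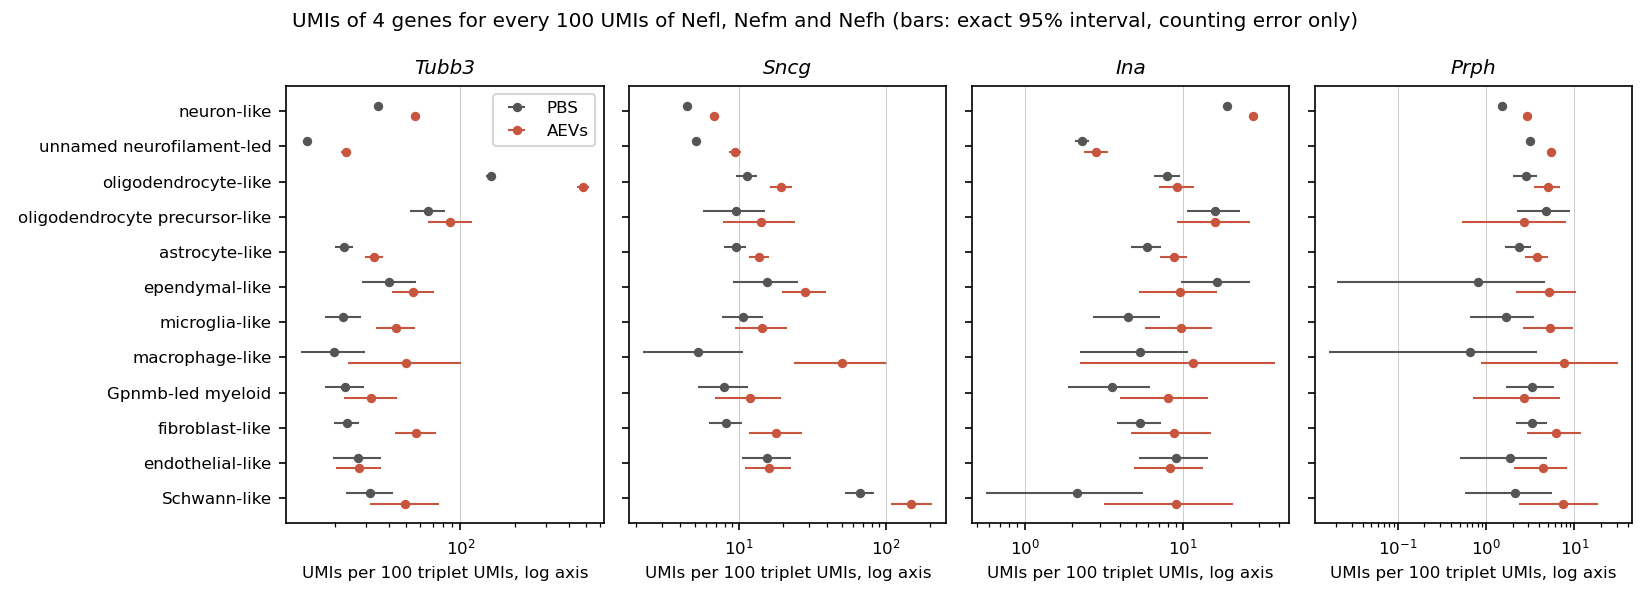
UMIs of Tubb3, Sncg, Ina and Prph for every 100 triplet UMIs (log axes) by class of nuclei, PBS in grey and AEVs in red, with exact 95% bars. Oligodendrocyte-like nuclei stand apart for Tubb3 (148 and 481) and Schwann-like nuclei for Sncg (66.5 and 149).

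Over 34 units, the 24 neuron sub-clusters and 10 other classes, the genes whose profile was most like each member were found by the lower of the Pearson correlations in both libraries, among 13753 genes, as a description. The subunits were nearest to each other, with 0.929 between Nefl and Nefm, 0.862 between Nefl and Nefh and 0.858 between Nefm and Nefh. The next gene for Nefl was Cda at 0.719. Ina was most like Ndrg4 (0.949), Snap25 (0.948) and Stmn3 (0.945). Prph was most like Lgals1 (0.622) and Sncg (0.596), Tubb3 most like Dync1li2 (0.728), and Sncg most like Dysf (0.769).

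Genes of 8 other lists, most of them of the axonal skeleton, differed far less between the libraries. The lists also hold intermediate filaments of other cells, other synucleins and abundant axonal proteins. Of 78 listed genes, 77 had enough UMIs in neuron-like nuclei, and 1 was at least 1.5-fold lower and 2 at least 1.5-fold higher, a smaller share than the 6.36% and 13.1% of all genes. The lower one was Tubb6, a tubulin with 53 and 30 UMIs. The higher ones were Stmn1, which encodes the microtubule-destabilizing stathmin (124 and 189 CPM, 1.52), and Nes, with 12 and 18 UMIs. Nes is on the list of intermediate filaments of other cells. The axonal membrane skeleton list had 9 of 10 genes below 1 and a median log2 ratio of -0.17, with Nfasc, a node adhesion gene, at 232 and 177 CPM (0.763). Microtubule-associated proteins had 10 of 12 below 1 and a median of -0.13, with Map1b at 611 and 469 CPM (0.767). The tubulins other than Tubb3 had 4 of 10 below 1 and a median of 0.07, and the axonal motors 7 of 12 and -0.02. Cross-linkers and partners of neurofilaments had 6 of 9 below 1 and a median of -0.17, with Dst, a linker of filaments, at 697 and 609 CPM (0.875) and Cdk5, a kinase of neurofilament tails, at 39.0 and 56.4 CPM (1.45). Sncb, a synuclein gene related to Sncg, measured 163 and 194 CPM (1.19).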

How the data were processed

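Each library pools the spinal cords of 3 mice and was read with a droplet 3-prime kit (SeekOne DD), per the labels. The deposited matrices hold raw UMI counts per gene and nucleus. The authors' processing notes name mm10 and Seurat. The aligner, like the annotation and the strand setting, is not given in the sources used here. The members and gene lists were chosen with earlier results of these data known.

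Nuclei with at least 300 genes, at least 500 UMIs and under 5% mitochondrial UMIs were kept, and doublets called by Scrublet (947 in PBS, 1347 in AEVs) were removed. Clustering used scanpy 1.11.5 with 2000 variable genes per library, the 7 members left out, 30 principal components, 20 neighbours and Leiden resolution 1, which gave 27 clusters, named from marker lists. Neuron-like nuclei were clustered again into 31 sub-clusters and grouped by transmitter genes, a rule made after the data were seen: high means at least 100 CPM, Slc17a6-high and Slc32a1-high sub-clusters have the other of these genes under 25 CPM, and low Slc6a5 means Slc32a1-high with Slc6a5 under 100 CPM. Counts were summed per class (at least 100 nuclei in each library) or sub-cluster (at least 50) and divided by the group's total. Chat-high nuclei and sub-cluster 15, each with 45 nuclei in 1 library, are under that minimum and are given as a description. Genes needed 20 UMIs in both libraries together for a ratio. Intervals were exact Poisson for levels, conditional binomial for ratios and Clopper-Pearson for shares (scipy 1.17.1). With 1 library per group no test or DE model was run. The 7 members are named whatever their values, and other genes come from fixed lists or the likeness ranking (pseudocount 1, at least 200 UMIs in each library).

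On counts simulated with counting error only, for 19179 genes of neuron-like nuclei, 97.9% of genes set to a ratio of 0.5 were recovered. Of those set to 2, 98% were recovered, and intervals covered 95.4% of true values. Spread between nuclei or mice was not simulated, so the coverage checks the calculation and not the width of intervals in these data.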

Additional observations from a re-analysis of the deposited data

Results flagged for a closer look

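Nefm differed in direction between classes. It was higher in the AEVs library in ependymal-like nuclei, with a ratio of 1.67, and at least 1.5-fold lower in the 8 classes given next. The ratio was 0.608 in neuron-like, 0.516 in oligodendrocyte-like, 0.437 in microglia-like and 0.254 in macrophage-like nuclei. It was 0.507 in the Gpnmb-led myeloid, 0.314 in fibroblast-like, 0.305 in Schwann-like nuclei and 0.389 in the unnamed neurofilament-led cluster. In Schwann-like nuclei 40 of the 94 PBS Nefm UMIs lay in 1 nucleus. Without the 5% of nuclei richest in Nefm in each library their ratio was 0.645 (0.315 to 1.28), an interval that includes equal levels. In ependymal-like nuclei 73 of the 157 triplet UMIs of the AEVs library lay in 1 nucleus, and the triplet ratio of 1.35 was 0.856 without the richest nucleus of each library. In endothelial-like nuclei Nefm had a ratio of 1.06 (0.762 to 1.48), and the 138 and 30 nuclei of the T or NK cell-like class were too few to compare.

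Tubb3 was higher in AEVs in oligodendrocyte-like nuclei (1.60) and ependymal-like nuclei (1.84) and lower in Schwann-like nuclei (0.616). Sncg was higher in ependymal-like nuclei (2.43) and lower in microglia-like nuclei (0.591). The limit on ependymal-like nuclei given above, with raised neuron markers, holds for Tubb3 and Sncg too. None of these differences between classes was tested, since each group is 1 library.

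Barcodes removed for 5% or more mitochondrial UMIs, 526 in PBS and 102 in AEVs, were rich in the triplet. It measured 6829.8 CPM in the PBS and 12685 CPM in the AEVs barcodes, where the kept nuclei had 665 and 321 CPM. They held 18.0% and 5.96% of the triplet UMIs of their libraries and 2.09% and 0.156% of all UMIs, with medians of 1069 and 863 UMIs.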

How the results depend on the processing

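No paired analysis was possible because each group is 1 library and the labels give no replicate numbers. Intervals cover counting error only, and depth limits Prph and Sncg most. TMM scaling lowers all log2 ratios by 0.10 in all nuclei and neuron-like nuclei and by 0.13 in oligodendrocyte-like nuclei. Where a value below moved, the cause was not tested. The triplet ratio stayed below 1 under every alternative run in each of the groups that follow. Over all nuclei it was 0.468 with doublets kept, 0.496 with a stricter filter, 0.424 with no mitochondrial limit, 0.451 with TMM, 0.354 as a mean over nuclei, 0.390 thinned and 0.491 without the richest nuclei. In neuron-like nuclei it was 0.573 with the stricter filter, 0.546 with TMM, 0.562 as a mean, 0.560 thinned, 0.643 at the same subtype mix, 0.766 at the same depth mix and 0.603 without the richest nuclei. In the unnamed neurofilament-led cluster it was 0.543 with doublets, 0.554 stricter, 0.643 with no mitochondrial limit, 0.515 at Leiden resolution 2, 0.524 with the members among the variable genes, 0.438 with TMM and 0.523 as a mean. Oligodendrocyte-like nuclei gave 0.416 with doublets, 0.450 with TMM and 0.424 thinned, and astrocyte-like nuclei 0.346 with no mitochondrial limit. Microglia-like nuclei gave 0.329 with doublets and 0.520 with members among the variable genes. Schwann-like nuclei gave 0.586 stricter, 0.691 with members among the variable genes and 0.543 without the richest nuclei. Slc17a6-high nuclei gave 0.789 stricter, 0.533 with no mitochondrial limit, 0.681 with TMM, 0.687 as a mean, 0.661 thinned and 0.654 when sorted nucleus by nucleus. Slc6a5-high nuclei gave 0.656 with members among the variable genes, 0.965 thinned and 0.662 sorted singly. Slc6a5-low nuclei gave 0.3001 with doublets, 0.365 at resolution 2, 0.631 sorted singly and 0.713 without sub-cluster 23. Mixed nuclei gave 0.614 stricter, 0.694 with no mitochondrial limit, 0.580 with TMM, 0.684 as a mean, 0.677 thinned, 0.741 sorted singly and 0.681 without the richest nuclei. The level of deep over 4000-bin nuclei was 2.43 as a mean and 2.24 thinned in PBS, and 3.74 and 3.47 in AEVs. Of the genes of the 8 lists, 0 were lower past the fold with doublets kept, 3 with TMM and 2 as a mean, and 1 was higher with the stricter filter and 0 with TMM. Single-gene ratios lay on the other side of 1 in 64 of 631 alternatives, and in 6 of these the ratio itself had been past 1.5-fold. The 6 were Ina in the unnamed cluster with the stricter filter (1.03), Prph in mixed neurons sorted singly (0.800), Sncg in Slc6a5-low nuclei without sub-cluster 23 (1.42), and, relative to the triplet, Ina in oligodendrocyte-like (1.15), Sncg in microglia-like (1.35) and Tubb3 in Schwann-like nuclei (1.57). Leaving out the richest nuclei, sub-cluster 23 or barcodes that both libraries hold was chosen after seeing the data.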

Other observations

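In the unnamed neurofilament-led cluster, other genes of neurons were higher or lower in AEVs. Calca, which encodes the peptide CGRP, measured 230.0 and 936 CPM (4.07, 3.53 to 4.70), and Uts2, which encodes urotensin, 114 and 585 CPM (5.12, 4.21 to 6.26). Sprr1a, an injury-induced gene of axons, measured 111 and 396 CPM (3.57, 2.90 to 4.43), and Atf3, an injury-induced transcription factor gene, 12.6 and 37.8 CPM from 15 and 27 UMIs (3.00, 1.54 to 6.07). Slc17a6 measured 175 and 51.8 CPM (0.295) and Scn4b 165 and 61.6 CPM (0.374). Summed over all neuron-like nuclei, Sprr1a, Atf3 and Uts2 differed from this cluster in direction, with no test of the difference. There Sprr1a measured 22.6 and 7.06 CPM (0.312, 0.274 to 0.355), Atf3 3.25 and 1.97 CPM (0.606, 0.458 to 0.798) and Uts2 4.26 and 3.12 CPM (0.733, 0.583 to 0.919). In Chat-high nuclei Uts2 measured 75.4 and 14.3 CPM (0.189). They held 100 of the 189 Uts2 UMIs of neuron-like nuclei in PBS and 17 of 135 in AEVs. Sub-cluster 24 held 723 of the 1003 Sprr1a UMIs of neuron-like nuclei in PBS and 144 of 305 in AEVs. It also held 96 of 144 and 44 of 85 Atf3 UMIs. The direction in neuron-like nuclei outside sub-cluster 24 and the Chat-high group was not tested. Calca measured 18.8 and 24.4 CPM (1.297) in neuron-like nuclei, and the ratios of Slc17a6 and Scn4b there were 0.985 and 0.826. In the unnamed cluster the 8 cholinergic markers summed to 1160 and 711 CPM, all 8 lower in AEVs, and the 10 neuron markers to 3659 and 3434 CPM. Markers of sensory ganglion neurons were near 0, at 15.1 and 16.8 CPM in sum, with 5 of 8 at 0 in each library. Oligodendrocyte markers stood at 7216 and 8834 CPM and erythroid markers at 121 and 542 CPM. All 8 Gpnmb-led myeloid markers were raised in the cluster as well. The part of these other-class markers in the differences was not tested. These genes were chosen after the leading genes of the cluster were seen.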
